A study of Mus musculus with 9 samples.

Results

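Nr0b2 and 7 genes of bile acid sensing and transport were followed in mouse duodenum, in the deposited gene table of 54532 genes and 9 libraries. The 8 genes were taken by symbol, namely Nr0b2, Nr1h4, Fgf15, Slc51a, Slc51b, Slc10a2, Fabp6 and Gpbar1, and all 8 were found. The group was put together with the levels of Nr0b2 in these libraries already known, so its values are a description; calls over the whole table are given as background, and nothing about these genes is read from them. RNA came from duodenal tissue in 3 groups of 3 libraries. CeD+GR mice were a delayed-type hypersensitivity (DTH) model of celiac disease that received composite nanoparticles of gliadin and rapamycin before enhanced stimulation with gluten; rapamycin inhibits the mTOR kinase and gliadin is a gluten fraction. CeD mice were the same model with enhanced gluten stimulation and no nanoparticles. Control mice were wild type (WT) and had gluten stimulation that was not enhanced, so the CeD and Control groups differ in both model and stimulation. The sources used here state neither strain, age, sex and doses nor whether each library is 1 animal, so the spread between libraries may be technical.

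Bile acids made in the liver are released into the duodenum and taken back up mainly in the ileum. Inside enterocytes they bind Nr1h4, the farnesoid X receptor, which pairs with a retinoid X receptor on DNA and raises the transcription of Nr0b2, of the hormone Fgf15 and of the export transporter made of Slc51a and Slc51b. Nr0b2, the small heterodimer partner, has no DNA-binding domain and acts by repressing other nuclear receptors, among them Nr5a2 and Hnf4a. Gpbar1 is the membrane receptor for bile acids.

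Levels are FPKM, fragments per kilobase of gene length divided by a size for each library, which can be compared between genes. Reads were recovered from these levels, and 15373260 to 16852104 reads per library fell on genes. The library size implied by the FPKM was not that number of reads. It was 17831210 against 15373260 reads in CeD 1, and 14410550 against 16195917 reads in CeD 2. The deposited levels thus carry a scaling between libraries whose formula is not given. Tests ran over the 14683 genes whose mean reached 0.5 FPKM. Of the 8 genes, 5 passed that minimum (Nr0b2, Nr1h4, Slc51a, Slc51b and Gpbar1) and 3 did not (Slc10a2, Fabp6 and Fgf15).

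Some libraries held transcripts of neighbouring tissue or stood apart in position markers. The summed level of 6 markers of stomach and Brunner glands was 121321 FPKM in CeD+GR 3 and at most 46.6 FPKM elsewhere. The summed level of 6 exocrine pancreas markers was 2927 FPKM in CeD 1 and at most 40.9 FPKM elsewhere. The 5 Paneth cell markers summed highest in replicate 1 of each group, at 1993 FPKM in CeD+GR 1, 1891 FPKM in CeD 1 and 999.8 FPKM in Control 1. Adipoq, an adipocyte hormone, stood at 26.6 FPKM in CeD+GR 2 and at most 1.51 FPKM elsewhere. The 4 smooth muscle markers summed to between 115.3 FPKM in CeD+GR 1 and 913.4 FPKM in CeD 3. The 7 enterocyte markers were all detected in every library, and their sum ran from 6474 to 16596 FPKM in CeD+GR, from 8400 to 19959 FPKM in CeD and from 10497 to 18762 FPKM in Control. The position marker Pdx1, which is high near the stomach, stood at 1.59, 0.118 and 46.0 FPKM in CeD+GR 1 to 3, at 25.3, 11.96 and 6.64 FPKM in the CeD libraries 1 to 3, and at 27.2, 26.0 and 26.3 FPKM in Control 1 to 3. In bulk tissue, fewer cells of a type and less RNA per cell cannot be told apart.

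The stretch of 250 bases before the start of Nr0b2 is shown because Nr0b2 is the gene whose groups separate. It comes from RefSeq on GRCm38.p6, chr4:133553126-133553375, plus strand. Capitals mark TCAAGG, the core that Nr5a2 is known to bind, which was searched on both strands.
Nr0b2: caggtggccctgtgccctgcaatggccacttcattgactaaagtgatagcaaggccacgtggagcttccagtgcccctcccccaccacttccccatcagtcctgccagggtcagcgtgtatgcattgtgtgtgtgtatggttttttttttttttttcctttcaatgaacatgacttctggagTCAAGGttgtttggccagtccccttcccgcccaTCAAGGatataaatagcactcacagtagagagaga
The window holds 2 copies of TCAAGG, whose first bases lie 68 and 35 bases before the start. Of 32851 mouse windows of the same length, 12.5% held at least 1 copy and 0.922% held 2 or more. The other 6 windows in the table, for Nr1h4, Slc51a, Slc51b, Slc10a2, Fabp6 and Gpbar1, held 0 copies. The RefSeq window of Nr1h4 lies inside the gene as the deposited table bounds it, and those of Slc51b, Slc10a2 and Gpbar1 overlap an annotated exon. These matches are letters in a window, not sites shown to be bound.

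The inverted repeat of AGGTCA, 1 base N and TGACCT, the element known to bind Nr1h4 paired with a retinoid X receptor, was searched in the same windows with up to 3 mismatches. It reads the same on both strands; no window held both a TCAAGG copy and a match. Its closest matches in the transporter genes and Fabp6 are shown because these are known genes of the Nr1h4 pathway; capitals mark the letters that match. They lie at chr11:43601772-43601784 and chr11:43601692-43601704 for Fabp6, at chr9:65422948-65422960 for Slc51b and at chr16:32487946-32487958 for Slc51a, all on the minus strand; the Slc51b match crosses the upstream boundary of the deposited gene at 65422955.
Fabp6: AGGTgAaTGACCa
Fabp6: AGGTgAaTaACCT
Slc51b: gGGTCAtTcACCc
Slc51a: AGGaCttTGtCCT
Both Fabp6 matches have 2 mismatches, which 0.959% of all windows hold or better. The Slc51b and Slc51a matches have 3 mismatches, found in 9.63% of all windows. The windows of Nr0b2, Nr1h4, Slc10a2 and Gpbar1 held 0 matches with up to 3 mismatches. Bases more than 250 before the start were not searched, so 0 matches does not mean that a gene lacks the element.

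By mean level over the 9 libraries, Slc51b came first with 111.8 FPKM, followed by Slc51a with 90.0 FPKM, Nr1h4 with 24.9 FPKM, Nr0b2 with 8.39 FPKM, Gpbar1 with 0.675 FPKM, Slc10a2 with 0.178 FPKM, Fabp6 with 0.0579 FPKM and Fgf15 with 0.0129 FPKM. Slc51b was above Slc51a in 8 of 9 libraries, with wide overlap between their ranges. Slc51a exceeded Nr1h4, Nr1h4 exceeded Nr0b2 and Nr0b2 exceeded Gpbar1 in 9 of 9 libraries each. The exporter and the nuclear receptor were thus the most abundant, and the ileal genes Slc10a2, Fabp6 and Fgf15 lay near 0.

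**Figure D1:**
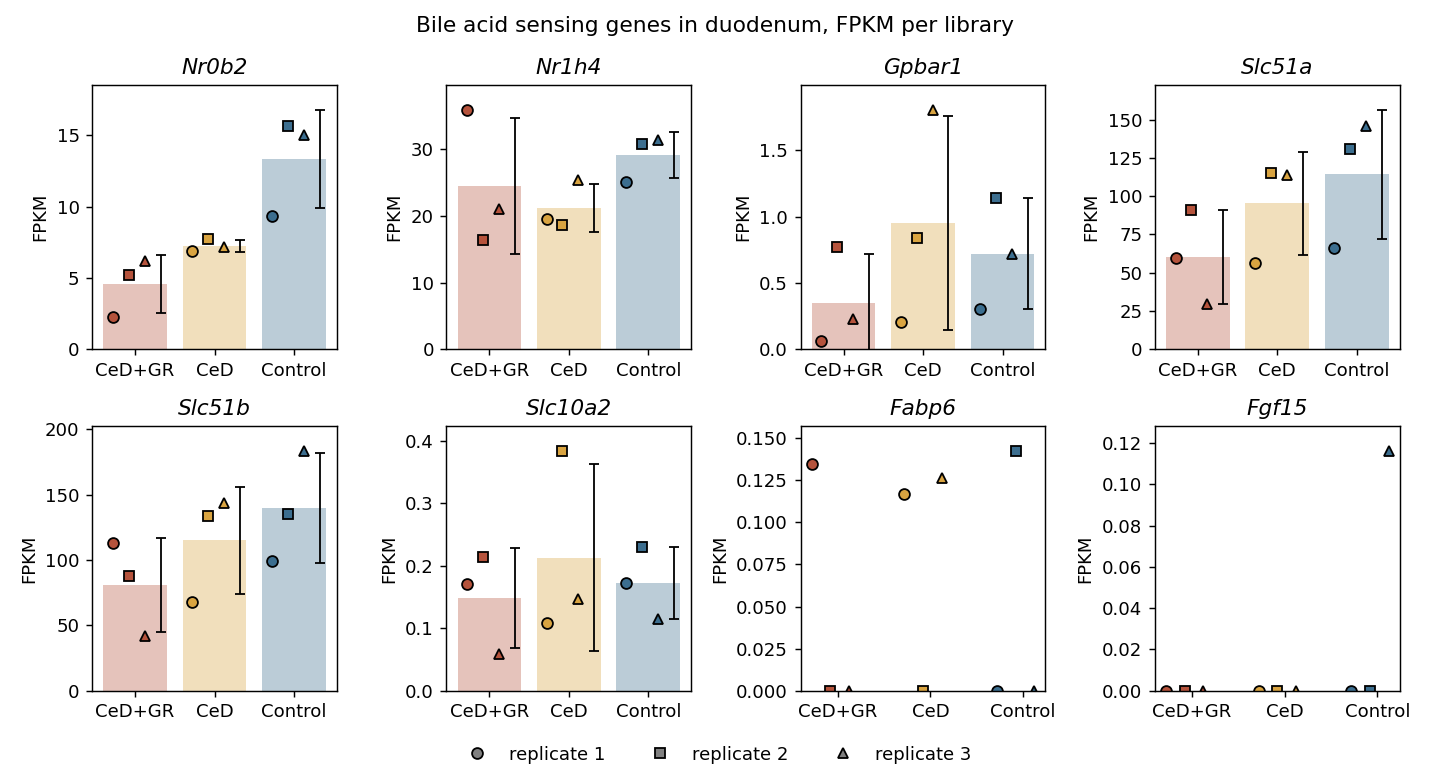
FPKM of the 8 genes per library, with groups along the horizontal axis and a linear vertical axis of its own for each gene. Symbols are the 3 replicates, bars are group means and whiskers are SD (n = 3), except for Fabp6 and Fgf15, where most libraries are listed at 0 and only the single values are drawn. The 3 groups do not overlap for Nr0b2, and they overlap for each of the other 7 genes.

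Nr0b2 (ENSMUSG00000037583, mm10 chromosome 4, 133553376 to 133556536) had the order CeD+GR, CeD, Control from low to high. It stood at 2.28, 5.22 and 6.21 FPKM in CeD+GR 1 to 3, at 6.89, 7.72 and 7.18 FPKM in the CeD libraries 1 to 3, and at 9.36, 15.6 and 15.0 FPKM in Control 1 to 3. Every CeD+GR library lay below every CeD library, and every CeD library lay below every Control library. In each group replicate 1 was the lowest. The gap between the neighbouring groups was narrow in places, with 6.21 FPKM in the highest CeD+GR library against 6.89 FPKM in the lowest CeD library.

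Group means of Nr0b2 were 4.57 ± 2.04 FPKM in CeD+GR, 7.26 ± 0.425 FPKM in CeD and 13.3 ± 3.46 FPKM in Control (SD, n = 3 each). The ratio of mean FPKM was 0.629 for CeD+GR over CeD, 0.545 for CeD over Control and 0.343 for CeD+GR over Control. On the scale of log2(FPKM + 0.5) the differences fitted by limma were -0.71 (SE 0.34), -0.80 (SE 0.34) and -1.51 (SE 0.34) in the same order. The gene was counted on 40, 93 and 115 reads in CeD+GR 1 to 3, on 139, 126 and 134 reads in CeD 1 to 3, and on 193, 259 and 287 reads in Control 1 to 3. Exact 95% Poisson intervals, which cover counting error only, ran from 1.63 to 3.11 FPKM in CeD+GR 1. They ran from 5.13 to 7.46 FPKM in CeD+GR 3 and from 5.79 to 8.13 FPKM in CeD 1, so the neighbouring libraries of CeD+GR and CeD were not separated by their counts.

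The separation of all 3 groups in this order was found in 8 of 14683 tested genes, or 0.0545%. The other 7 were C2cd5, Fcho1, Gm11739, Gm16589, Gm26964, Sphk2 and Sprtn, named here after their values were seen. The opposite order, with CeD+GR highest and Control lowest, was found in 0.0272% of the tested genes. Since Nr0b2 was picked from these values, nothing further is read from that share.

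The CeD+GR against CeD difference of Nr0b2 rested mostly on CeD+GR 1. Without that library it was -0.32, and with replicates 2 and 3 only it was -0.36. The CeD against Control difference was -0.99 with replicates 2 and 3 only, and the CeD+GR against Control difference was -1.35. Without CeD 1 and CeD+GR 3, the libraries with pancreas and stomach transcripts, the differences were -0.995 for CeD+GR against CeD, -0.77 for CeD against Control and -1.76 for CeD+GR against Control. Paneth cell markers were high in replicate 1 of every group, where Nr0b2 was lowest, and their part in the result was not tested.

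Taken relative to the mean log2 level of the 7 enterocyte markers, the difference of Nr0b2 was -0.13 (SE 0.74) for CeD+GR against CeD, -0.86 (SE 0.74) for CeD against Control and -0.99 (SE 0.74) for CeD+GR against Control. On this scaling the median of all genes itself was 0.59 in CeD+GR against CeD, -0.06 in CeD against Control and 0.52 in CeD+GR against Control. CeD+GR and CeD overlapped on this scale: CeD+GR 3, with the lowest enterocyte level, was the highest of the 9 libraries, and CeD+GR 2 lay above CeD 2. The 7 markers did not move together in CeD+GR 3. There Alpi was the highest of the 9 libraries at 1643 FPKM. Lct at 9.12 FPKM, Apoa4 at 462.9 FPKM and Fabp2 at 1617 FPKM were the lowest. The enterocyte level of that library therefore depends on the markers chosen. On this scale Nr0b2 stood at -8.88, -7.60 and -5.65 in CeD+GR 1 to 3, at -6.81, -7.82 and -7.12 in CeD 1 to 3, and at -6.55, -6.53 and -6.07 in Control 1 to 3. The 3 Control libraries lay above the 3 CeD libraries in both forms.

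**Figure D2:**
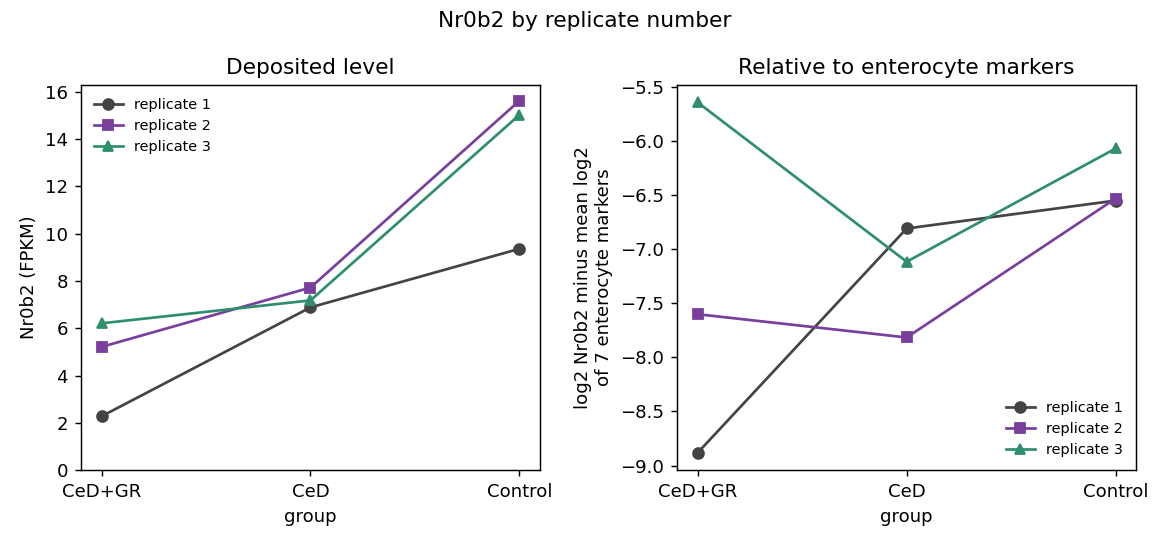
Nr0b2 in each library, with groups along the horizontal axis and a line for each replicate number, which only joins libraries of the same number. The left panel gives FPKM and the right panel gives log2(FPKM + 0.5) minus the mean of 7 enterocyte markers; in the left panel all 3 lines run from low in CeD+GR to high in Control, and in the right panel CeD+GR 3 is highest at -5.65.

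Nr1h4, the nuclear receptor that senses bile acids (ENSMUSG00000047638, mm10 chromosome 10, 89454234 to 89533585), did not follow the order of Nr0b2. It stood at 36.0, 16.4 and 21.0 FPKM in CeD+GR 1 to 3, at 19.5, 18.7 and 25.4 FPKM in the CeD libraries 1 to 3, and at 25.1, 30.8 and 31.3 FPKM in Control 1 to 3. CeD+GR held both the highest and the lowest of the 9 values, and CeD 3 lay just above the lowest Control library. Means were 24.5 ± 10.2 FPKM in CeD+GR, 21.2 ± 3.66 FPKM in CeD and 29.1 ± 3.46 FPKM in Control (SD, n = 3 each). The log2 differences were 0.14 (SE 0.30) for CeD+GR against CeD, -0.45 (SE 0.30) for CeD against Control and -0.31 (SE 0.30) for CeD+GR against Control. Leaving out CeD+GR 1 gave -0.17 for the first, and leaving out CeD+GR 2 gave 0.38. Relative to the enterocyte markers the CeD+GR against Control difference turned to 0.21.

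The level of Nr0b2 relative to that of Nr1h4 differed most in CeD+GR 1, the library with the most Nr1h4 and the least Nr0b2. The ratio of FPKM was 0.0634, 0.317 and 0.295 in CeD+GR 1 to 3, 0.353, 0.413 and 0.283 in CeD 1 to 3, and 0.373, 0.507 and 0.479 in Control 1 to 3. Here CeD 3 lay within the CeD+GR range, so CeD+GR and CeD overlapped, and CeD 2 lay above Control 1, so CeD and Control overlapped too.

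Gpbar1, the membrane receptor of bile acids known from enteroendocrine cells and macrophages (ENSMUSG00000064272, mm10 chromosome 1, 74278550 to 74279624), was counted on 1 to 32 reads per library. It stood at 0.0601, 0.768 and 0.228 FPKM in CeD+GR 1 to 3, at 0.209, 0.839 and 1.81 FPKM in the CeD libraries 1 to 3, and at 0.307, 1.14 and 0.717 FPKM in Control 1 to 3. The groups overlapped, and in every group replicate 1 was the lowest. The 6 macrophage markers summed to 76.9, 39.4 and 36.4 FPKM in CeD+GR 1 to 3, to 53.3, 23.9 and 30.8 FPKM in CeD 1 to 3, and to 69.6, 22.6 and 39.4 FPKM in Control 1 to 3. The 4 markers of L cells and other enteroendocrine cells summed to 32.2, 18.8 and 7.85 FPKM in CeD+GR 1 to 3, to 24.2, 14.9 and 11.3 FPKM in CeD 1 to 3, and to 18.6, 7.98 and 9.84 FPKM in Control 1 to 3. Both sums were highest in replicate 1 of every group, where Gpbar1 was lowest, and their part in the result was not tested. The log2 differences were -0.69 (SE 0.52) for CeD+GR against CeD and 0.15 (SE 0.52) for CeD against Control. Libraries of 1 group stood apart beyond counting error, with exact 95% Poisson intervals of 0.0569 to 0.534 FPKM in CeD 1 and 1.24 to 2.55 FPKM in CeD 3. Over 20 alternatives the CeD+GR against CeD difference ran from -1.42, with limma-voom on the recovered reads, to -0.11, relative to the enterocyte markers. It was -0.43 without CeD+GR 1, -1.13 without CeD 1, -0.28 without CeD 3 and -1.201 with 0.1 FPKM added in place of 0.5 FPKM.

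Slc51a and Slc51b encode the subunits of the heterodimer that exports bile acids across the basolateral membrane of enterocytes. Slc51a (ENSMUSG00000035699, mm10 chromosome 16, 32474504 to 32487879) stood at 59.9, 91.1 and 29.8 FPKM in CeD+GR 1 to 3, at 56.6, 115.3 and 114.1 FPKM in the CeD libraries 1 to 3, and at 66.5, 130.8 and 145.9 FPKM in Control 1 to 3. Slc51b (ENSMUSG00000053862, mm10 chromosome 9, 65412714 to 65422955) stood at 112.7, 87.8 and 41.7 FPKM in CeD+GR 1 to 3, at 68.0, 133.7 and 143.7 FPKM in the CeD libraries 1 to 3, and at 99.5, 135.4 and 183.6 FPKM in Control 1 to 3. Both subunits were lowest in CeD+GR 3 and highest in Control 3, and the groups overlapped for both. Each gene overlaps a neighbour on the other strand, Slc51a with Pcyt1a over 567 bases and Slc51b with Rasl12 over 2140 bases, and the strand setting of the counting is not given in the sources used here.

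Slc51a averaged 60.3 ± 30.7 FPKM in CeD+GR, 95.3 ± 33.5 FPKM in CeD and 114.4 ± 42.2 FPKM in Control (SD, n = 3 each). Slc51b averaged 80.7 ± 36.0 FPKM in CeD+GR, 115.1 ± 41.1 FPKM in CeD and 139.5 ± 42.2 FPKM in Control (SD, n = 3 each). For CeD+GR against CeD the log2 differences were -0.73 (SE 0.49) for Slc51a and -0.55 (SE 0.45) for Slc51b. For CeD against Control they were -0.26 (SE 0.49) and -0.31 (SE 0.45), and for CeD+GR against Control -0.98 (SE 0.49) and -0.86 (SE 0.45), again with Slc51a before Slc51b.

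The CeD+GR against CeD differences of both subunits moved with single libraries. Without CeD+GR 3, the library with stomach transcripts and the lowest enterocyte sum, they were -0.29 for Slc51a and -0.14 for Slc51b. Without CeD 1, the library with pancreas transcripts, they were -1.06 and -0.89. Slc51a was -1.09 without CeD+GR 2, and Slc51b was -0.85 without CeD+GR 1 and -0.36 without CeD 3. Relative to the enterocyte markers the differences were -0.14 for Slc51a and 0.03 for Slc51b. With replicates 2 and 3 only they were -1.13 and -1.19. Without CeD 1 and CeD+GR 3, the CeD against Control differences turned to 0.08 for Slc51a and 0.03 for Slc51b. The ratio of Slc51b to Slc51a was 1.88, 0.963 and 1.40 in CeD+GR 1 to 3, 1.201, 1.16 and 1.26 in CeD 1 to 3, and 1.50, 1.04 and 1.26 in Control 1 to 3. The ratio varied less than the level of either subunit.

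The uptake and hormone genes of the ileum were near the limit of detection in all 3 groups. Slc10a2, the apical sodium-dependent bile acid transporter (ENSMUSG00000023073, mm10 chromosome 8, 5083219 to 5105351), had 11, 14 and 4 reads in CeD+GR 1 to 3, 8, 23 and 10 reads in CeD 1 to 3, and 13, 14 and 8 reads in Control 1 to 3. Fabp6, the cytosolic bile acid binding protein of ileal enterocytes (ENSMUSG00000020405, mm10 chromosome 11, 43596049 to 43601540), had 1 read each in CeD+GR 1, CeD 1, CeD 3 and Control 2 and 0 in the other 5 libraries. Fgf15, which is sent to the liver to lower bile acid synthesis (ENSMUSG00000031073, mm10 chromosome 7, 144896531 to 144900953), had 6 reads in Control 3 and 0 in the other 8 libraries. A count of 0 allows up to 3 reads, which is 0.435 FPKM or less for Fabp6 and 0.0681 FPKM or less for Fgf15 in these libraries. Fgf15 overlaps Gm26793 and Gm39119 on the other strand, which reached at most 0.418 and 0 FPKM.

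Differences between groups were not tested for these 3 genes in the main fit, since they fell below the minimum of 0.5 FPKM. In the fit without a minimum they were not called, and their low counts limit what could be detected at this depth. The low ileal counts held also in CeD+GR 1 and CeD+GR 2, where Pdx1 was at 1.59 and 0.118 FPKM and Gata4 at 42.5 and 27.5 FPKM. Cubn, the vitamin B12 receptor of the distal small intestine, ran largely opposite to Pdx1. Cubn was high in CeD+GR 1 and CeD+GR 2, where Pdx1 was lowest, and it was lowest in CeD+GR 3, where Pdx1 was highest. Cubn was highest in CeD 2, where Pdx1 was not among its lowest levels. It stood at 24.2, 18.5 and 0.0737 FPKM in CeD+GR 1 to 3, at 4.74, 35.9 and 5.69 FPKM in the CeD libraries 1 to 3, and at 1.39, 4.85 and 2.96 FPKM in Control 1 to 3. The part of position along the intestine in the levels of Nr0b2 and the Slc51 subunits was not tested.

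**Figure D3:**
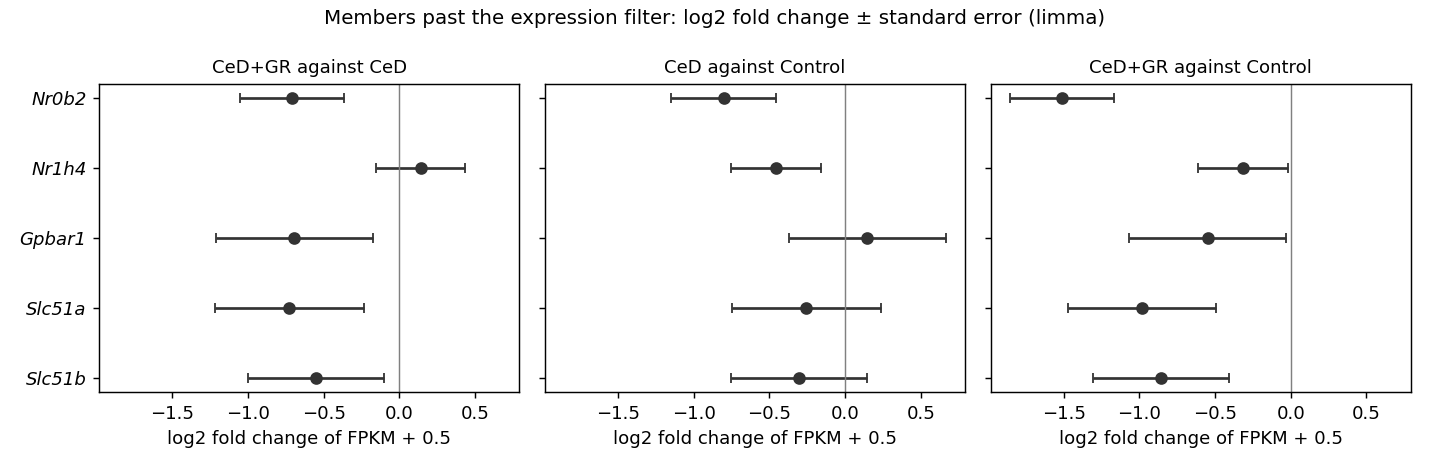
Log2 fold change of FPKM + 0.5 on the horizontal axis for the 5 genes past the expression minimum, in 3 comparisons; points are limma estimates and whiskers are 1 standard error. Nr0b2 is negative in all 3 panels, at -0.71, -0.80 and -1.51, and Nr1h4 is the gene above 0 in the first, at 0.14.

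By limma with Benjamini-Hochberg adjustment over all 14683 genes, 0 of the 5 genes were called in CeD+GR against CeD, where 0% of all genes were called. The same held in CeD against Control, with 0 of 5 genes and 0% of all genes, and in CeD+GR against Control, with 0 of 5 genes and 0% of all genes. The smallest adjusted p over all genes was 1 in each comparison. At an unadjusted p under 0.05 there were 425, 103 and 400 of all genes in the same order of comparisons. As shares of all genes, an unadjusted p under 0.05 was found lower in 1.76% and higher in 1.14% for CeD+GR against CeD, lower in 0.429% and higher in 0.272% for CeD against Control, and lower in 1.41% and higher in 1.31% for CeD+GR against Control. Limma-voom on the recovered reads also called 0 of the 5 in each comparison. Groups that did not overlap, with CeD+GR below CeD, were found for 1 of the 5 genes, against 3.04% of all genes; for CeD below Control it was 1 of 5 against 2.49%, and for CeD+GR below Control 1 of 5 against 3.04%. The gene was Nr0b2 each time. Groups that did not overlap in the other direction were found for 0 of the 5 genes in each comparison, against 3.01%, 2.2% and 2.54% of all genes in the same order. Nothing is read from these shares.

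The median log2 difference of the 5 genes was -0.69 in CeD+GR against CeD, with 4 of 5 negative, -0.31 in CeD against Control, with 4 of 5 negative, and -0.86 in CeD+GR against Control, with 5 of 5 negative. Over all tested genes the medians were 0.01, 0.00 and 0.00. The -0.69 is the value of Gpbar1, which was counted on 1 to 32 reads per library. The comparisons share libraries, so they are not independent of each other. The genes were put together with the levels of Nr0b2 known, so nothing is read from these medians and signs.

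The wider pathway was followed in 55 further genes, chosen by known role, of which 41 were tested. Limma called 0 of the 41 in each comparison. In CeD+GR against CeD the median log2 difference was -0.23, with 30 of 41 negative and 11 positive. Of all tested genes 51.1% were positive. In CeD against Control the median was -0.03, with 23 of 41 negative and 18 positive, while 50.5% of all genes were positive. In CeD+GR against Control it was -0.29, with 28 of 41 negative and 13 positive, while 49.7% of all genes were positive. The mean log2 level of the enterocyte markers was 8.39 in CeD+GR 3 and at least 9.69 in every other library. The part of this low level in the pathway medians was not tested. At an unadjusted p under 0.05 there were 4, 0 and 6 of the 41 genes lower, against 1.76%, 0.429% and 1.41% of all genes, and 0 of the 41 higher in each, against 1.14%, 0.272% and 1.31% of all genes. Limma-voom called 0 of the 41 in each comparison.

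Among the receptors and their partners, 13 of 14 genes were tested, with a median of -0.32 in CeD+GR against CeD and -0.04 in CeD against Control. Vdr, the vitamin D receptor, which also binds the secondary bile acid lithocholic acid, stood at 62.3, 55.1 and 43.4 FPKM in CeD+GR 1 to 3, at 89.1, 76.8 and 53.0 FPKM in the CeD libraries 1 to 3, and at 86.0, 84.2 and 81.3 FPKM in Control 1 to 3. All CeD+GR libraries lay below all Control libraries, and CeD+GR overlapped CeD. Hnf4a, an enterocyte and liver transcription factor that Nr0b2 can repress, averaged 80.2 ± 49.99 FPKM in CeD+GR, 110.5 ± 25.1 FPKM in CeD and 98.6 ± 31.4 FPKM in Control (SD, n = 3 each). Its relative Hnf4g averaged 71.2 ± 86.4 FPKM in CeD+GR, 124.1 ± 62.5 FPKM in CeD and 85.4 ± 46.8 FPKM in Control, and all 3 groups overlapped.

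The other transporters held the pathway gene with the smallest unadjusted p in CeD+GR against CeD. Abcc2, an apical exporter of conjugated organic anions, stood at 30.5, 34.6 and 14.0 FPKM in CeD+GR 1 to 3, at 74.9, 93.0 and 38.2 FPKM in the CeD libraries 1 to 3, and at 55.1, 55.8 and 42.2 FPKM in Control 1 to 3. Every CeD+GR library lay below every CeD and every Control library, and CeD overlapped Control. Abcc2 was 1 of 41 genes with CeD+GR below CeD without overlap, against 3.04% of all genes, and Rxrb, a retinoid X receptor, was 1 of 41 above, against 3.01%. Both counts are near the background. For CeD+GR below Control without overlap the count was 3 of 41, namely Vdr, Abcc2 and Gstm3, against 3.04% of all genes. For CeD+GR above Control it was 0 of 41, against 2.54%. The lists were chosen with earlier results of these data known, so nothing is read from these counts. The log2 difference of Abcc2 was -1.37 (SE 0.42) for CeD+GR against CeD and 0.34 (SE 0.42) for CeD against Control; it was not called (limma, adjusted p = 1).

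Abcb1a, an apical drug exporter, averaged 26.0 ± 18.2 FPKM in CeD+GR, 88.2 ± 59.8 FPKM in CeD and 44.8 ± 5.14 FPKM in Control (SD, n = 3 each). Abcc3, a basolateral exporter of bile acids and organic anions, averaged 12.8 ± 9.08 FPKM in CeD+GR, 24.0 ± 5.15 FPKM in CeD and 26.2 ± 4.29 FPKM in Control. CeD+GR overlapped CeD for both genes. Of the 13 transporters 8 were tested, with a median of -0.15 in CeD+GR against CeD and -0.04 in CeD against Control.

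Of 16 genes of bile acid synthesis and conjugation 9 were tested, with a median of -0.17 in CeD+GR against CeD and -0.02 in CeD against Control. Amacr, a racemase of bile acid side chains, averaged 9.35 ± 1.69 FPKM in CeD+GR, 11.4 ± 2.09 FPKM in CeD and 14.6 ± 3.69 FPKM in Control (SD, n = 3 each). Acox2, a peroxisomal oxidase of bile acid intermediates, averaged 6.32 ± 3.35, 8.25 ± 4.94 and 4.79 ± 1.25 FPKM in CeD+GR, CeD and Control. Cyp7b1, an oxysterol hydroxylase, averaged 1.27 ± 0.700, 0.818 ± 0.245 and 0.654 ± 0.241 FPKM in the same groups. The groups overlapped for all 3 genes in each comparison.

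The Fgf15 receptor Fgfr4 averaged 1.44 ± 1.44 FPKM in CeD+GR, 0.836 ± 0.612 FPKM in CeD and 0.811 ± 0.641 FPKM in Control (SD, n = 3 each). Malrd1, an enterocyte protein that affects Fgf15 output in mice, averaged 18.9 ± 17.3, 22.4 ± 10.9 and 18.8 ± 4.60 FPKM in CeD+GR, CeD and Control. The groups overlapped for both.

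Of 9 other genes linked to Nr1h4 in intestine or liver, all 9 were tested. Gstm3, a glutathione transferase, stood at 289.7, 123.3 and 103.0 FPKM in CeD+GR 1 to 3, at 436.9, 522.1 and 220.1 FPKM in the CeD libraries 1 to 3, and at 385.5, 634.3 and 686.7 FPKM in Control 1 to 3. All CeD+GR libraries lay below all Control libraries, and CeD+GR 1 lay within the CeD range. Il18, an epithelial cytokine, averaged 67.4 ± 31.7 FPKM in CeD+GR, 119.9 ± 28.8 FPKM in CeD and 132.7 ± 35.9 FPKM in Control (SD, n = 3 each), with overlap between all groups. Pltp, the phospholipid transfer protein, averaged 2.46 ± 0.476, 2.50 ± 1.38 and 1.69 ± 1.70 FPKM in CeD+GR, CeD and Control. The median of these 9 genes was -0.23 in CeD+GR against CeD and -0.14 in CeD against Control.

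**Figure D4:**
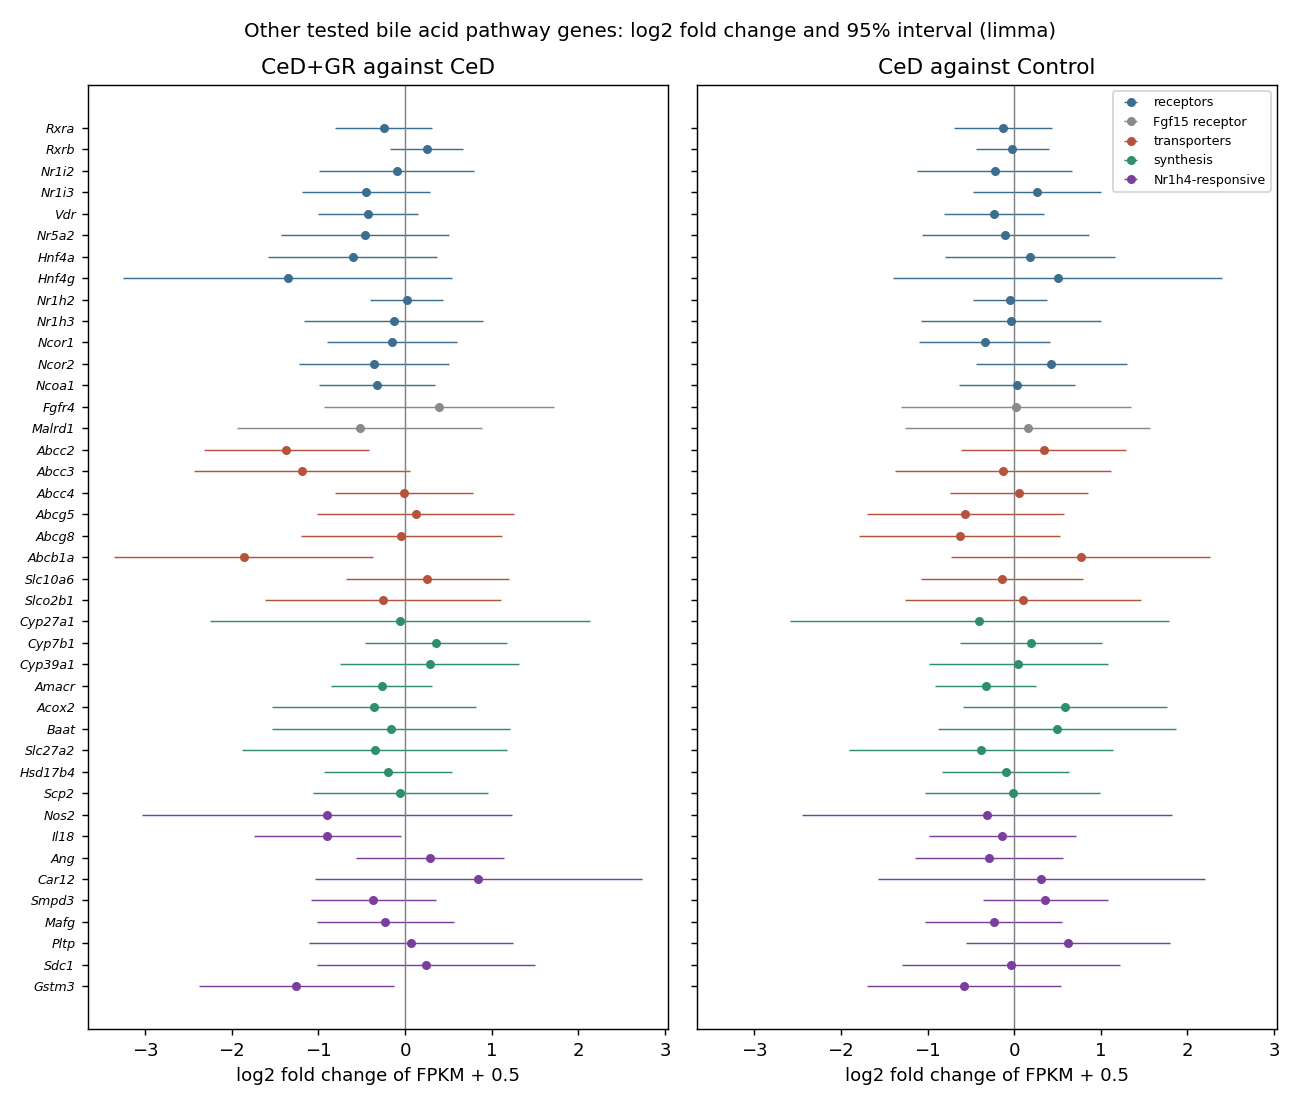
Log2 fold change of FPKM + 0.5 on the horizontal axis for the 41 tested genes of the wider bile acid pathway, coloured by role; points are limma estimates and whiskers are 95% intervals before adjustment. In CeD+GR against CeD the intervals of Abcb1a, Abcc2, Gstm3 and Il18 lie below 0, and in CeD against Control every interval includes 0; no gene was called after adjustment.

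Among the 12386 other protein-coding genes tested, those whose log2 levels were most like Nr0b2 over the 9 libraries were Zfp961, Plekhn1, Helq, Opn3 and Scly, with Pearson r of 0.92, 0.91, 0.90, 0.88 and 0.88. These are the highest of many values over 9 libraries and are a description. Among the 8 genes followed, Slc51a had an r with Nr0b2 of 0.54, Gpbar1 of 0.53, Slc51b of 0.38 and Nr1h4 of 0.08. These are the others that passed the minimum, over the same libraries, which share the group structure. Opn3, an opsin, stood at 1.28, 1.99 and 4.41 FPKM in CeD+GR 1 to 3, at 2.87, 3.88 and 2.82 FPKM in the CeD libraries 1 to 3, and at 4.25, 10.03 and 4.55 FPKM in Control 1 to 3. Scly, selenocysteine lyase, ran from 7.12 to 8.01 FPKM in CeD+GR, from 7.75 to 8.28 FPKM in CeD and from 8.33 to 10.3 FPKM in Control.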

How the data were processed

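The labels' protocols describe rRNA depletion and a directional library kit. Tools listed in the submitters' processing notes, without role or order, are HISAT2 2.0.5, fastp, DESeq2 1.20.0 and featureCounts 1.5.0-p3, with the build mm10. The values deposited by the authors are FPKM per gene; their annotation release, strand setting and FPKM formula are not given in the sources here. Gene lengths are the deposited ones. FPKM times length gave whole reads, within 0.1 reads, for 100% of values above 0. Values were taken as log2(FPKM + 0.5), genes whose mean reached 0.5 FPKM were kept, and 1 limma 3.58.1 model (R 4.3.3) over all 9 libraries was fitted with a trend and empirical Bayes, two-sided, with Benjamini-Hochberg adjustment at 0.05. This scale understates changes of low genes. All 8 genes have the same start and end in GENCODE M21, and 7 had a RefSeq promoter window, which is set by the RefSeq start and not by the deposited gene bounds. Named pathway genes are up to 3 per list with the smallest unadjusted p in the first 2 comparisons; the 5 genes most like Nr0b2 were ranked by Pearson r. The members and lists were chosen with earlier results of these data known. Steps were tested on simulated data.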

Additional observations from a re-analysis of the deposited data

How the results depend on the processing

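The count of called genes stayed at 0 among the 8 genes and at 0 among the other pathway genes in all 3 comparisons under every alternative run, namely a pseudocount of 0.1 or 1, a minimum mean of 2 FPKM or none, median-of-ratios and quantile scaling, pairwise fits, limma-voom, the replicate block, each library left out, replicates 2 and 3 only and the 2 alternatives added after seeing the data (without CeD 1 and CeD+GR 3, and relative to enterocyte markers). Gpbar1 is not tested at 2 FPKM. Nr0b2 kept a negative difference in all 21 alternatives. It ran from -0.995 to -0.13 for CeD+GR against CeD and from -1.03 to -0.67 for CeD against Control. For CeD+GR against Control it ran from -1.76 to -0.99. Several alternatives cannot change this difference, namely the expression minimum, the pairwise fit, the replicate block and leaving out a library of the group not compared. Nr0b2 was also picked from these values, so the count of 21 is not read as support. With the replicate block, Nr0b2 had differences of -0.71, -0.80 and -1.51 with an SE of 0.25, for CeD+GR against CeD, CeD against Control and CeD+GR against Control. Same-numbered libraries deviated together at over 0.1 in 7 of 9 pairs, with correlations from -0.12 to 0.71. The replicate 1 pairs ran from 0.37 to 0.71, and pairs of different number from -0.62 to 0.50. The value of 0.50 was between CeD+GR 2 and CeD 3, and CeD+GR 3 was at -0.12 with CeD 3 and -0.11 with Control 3. Deviations from a group mean depend on each other, so pairs of the same and of different number are not independent. These values therefore do not settle whether same-numbered libraries share structure. The main fit does not take the numbers as pairs, and the replicate block is given beside it. Nr1h4 ranged from -0.22 to 0.72 and Slc51b from -1.19 to 0.03 in CeD+GR against CeD. Low counts limit Slc10a2, Fabp6 and Fgf15; Gpbar1 also varied between libraries of 1 group beyond counting error.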
